A study of Mus musculus with 55 samples.

Results

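The genes followed here, 40 in all, serve protein folding in and export through the endoplasmic reticulum (ER), and were chosen by name as chaperones, folding enzymes, stress regulators, degradation factors, translocation subunits and retrieval receptors. All were found among the 15728 gene symbols measured. They comprised 9 luminal chaperones and cofactors, 2 lectin chaperones, 4 protein disulphide isomerases, 5 stress sensors and transcription factors, 7 factors of ER-associated degradation, 11 subunits of the translocation and signal peptide machinery and 2 KDEL receptors. RNA came from cells sorted out of mouse bone marrow and was sequenced by MARS-seq, a method that reads transcript 3′ ends, in 55 libraries. The sorted populations were granulocytes, CD4 T helper cells, CD8 T cytotoxic cells and CD4+CD25+ cells, called Treg after their label. Marrow was of 4 kinds: normal marrow, marrow of an early metastatic stage, and 2 sites of late animals, the bone lesion (core) and marrow away from it (peripheral). Normal, early, peripheral and core libraries numbered 4, 4, 4 and 3 for granulocytes and likewise for CD4, 4, 4, 2 and 2 for CD8, and 4, 3, 3 and 3 for Treg. The tumour was a breast cancer that spreads to bone. Strain, age and tumour line are not given in the sources used here.

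Proteins destined for the cell surface or for secretion enter the ER through the SEC61 channel, lose their signal peptide, and are folded by the HSP70 chaperone BiP (HSPA5), by the calcium-binding lectins calreticulin (CALR) and calnexin (CANX), and by disulphide isomerases. Proteins that stay misfolded are sent back to the cytosol and degraded, and escaped chaperones are returned from the Golgi by KDEL receptors. When folding falls behind, the sensors ERN1 (IRE1), ATF6 and PERK start the unfolded protein response, in which spliced XBP1, cleaved ATF6 and ATF4 raise transcription of the same machinery. Among leukocytes, antibody-secreting plasma cells are the textbook case of high expression of these genes.

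The response element through which ATF6 and XBP1 act was looked up in the promoters, because it ties together members of different roles. Promoter windows from 250 bases before to 50 after the start (RefSeq, GRCm38.p6) were matched for 31 of the 40 members. The ER stress response element, CCAAT and CCACG with 9 bases between them, on either strand, was present in 9 of the 31 windows (29.0%) and in 37 of the windows of 27025 genes (0.137%). Those 9 were HSPA5, HSP90B1, DNAJC3, CRELD2, CALR, CANX, PDIA6, SYVN1 and DERL3. The second form, ATTGG and CCACG with 1 base between them, was present in DNAJB11 and HERPUD1, 2 of the 31 (6.45%) against 12 of all windows (0.0444%), and TGACGTGG was present in 0 of the 31 and 193 of all (0.714%). A match describes letters only and is not a measured binding site. Windows are shown for 4 genes on which the results below turn, 1 chaperone, 1 lectin, 1 cofactor and 1 degradation factor, 5′ to 3′ on the gene's own strand. Capitals mark the fixed letters of the element, which is read directly in HSPA5 and as its reverse complement in the other 3. The windows are chr2:34771840-34772139 (plus strand) for HSPA5, chr8:84846882-84847181 (minus strand) for CALR, chr15:88819396-88819695 (plus strand) for CRELD2 and chr10:75893148-75893447 (plus strand) for DERL3.
HSPA5: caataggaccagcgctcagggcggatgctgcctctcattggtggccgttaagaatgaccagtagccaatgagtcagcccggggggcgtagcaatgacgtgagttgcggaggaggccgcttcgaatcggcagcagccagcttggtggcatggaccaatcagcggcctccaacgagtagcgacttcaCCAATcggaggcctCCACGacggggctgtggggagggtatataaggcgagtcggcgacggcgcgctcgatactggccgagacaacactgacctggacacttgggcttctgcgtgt
CALR: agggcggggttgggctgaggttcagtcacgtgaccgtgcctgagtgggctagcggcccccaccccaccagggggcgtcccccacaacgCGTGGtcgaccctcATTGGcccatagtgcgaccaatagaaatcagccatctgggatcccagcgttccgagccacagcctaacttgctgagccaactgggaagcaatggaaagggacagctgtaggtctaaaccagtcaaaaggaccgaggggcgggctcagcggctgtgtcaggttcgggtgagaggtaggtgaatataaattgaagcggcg
CRELD2: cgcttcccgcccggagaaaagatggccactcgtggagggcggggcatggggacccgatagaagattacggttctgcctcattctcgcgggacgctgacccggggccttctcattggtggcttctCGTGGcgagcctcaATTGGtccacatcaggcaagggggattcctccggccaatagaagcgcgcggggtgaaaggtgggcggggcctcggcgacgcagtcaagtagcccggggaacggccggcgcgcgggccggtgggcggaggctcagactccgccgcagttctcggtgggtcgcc
DERL3: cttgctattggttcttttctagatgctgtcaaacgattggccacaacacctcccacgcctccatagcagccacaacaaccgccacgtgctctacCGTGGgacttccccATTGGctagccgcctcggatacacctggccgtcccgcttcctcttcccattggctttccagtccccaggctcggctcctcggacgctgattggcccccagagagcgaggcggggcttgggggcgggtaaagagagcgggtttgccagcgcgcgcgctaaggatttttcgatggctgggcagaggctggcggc

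Recovered reads per library ranged from 357058 to 1633022 in granulocytes, 68263 to 876798 in CD4, 43224 to 1148806 in CD8 and 90075 to 429903 in Treg cells. Levels are given as normalised reads, the deposited reads divided by 1 factor per library, and are compared between samples for 1 gene at a time. Transcripts typical of lung summed to at least 200 normalised reads in 24 of the 55 libraries, among them 2 of 4 normal granulocyte, 3 of 4 normal CD4, 3 of 4 normal Treg and both core CD8 libraries. The defining transcription factor of 1 sort went against its label, while other markers of that sort were mixed. FOXP3, which defines regulatory T cells, averaged 1.2 in Treg and 8.21 in CD4 libraries of normal marrow and 1.76 and 5.43 in early marrow. It averaged 4.06 and 6.68 in peripheral and 7.73 and 18.6 in core marrow. The CD25 gene IL2RA averaged 0.433 in Treg and 1.66 in CD4 libraries of normal marrow, 0 and 4.31 in early, 1.34 and 4.90 in peripheral and 9.10 and 5.21 in core marrow. CTLA4, also a Treg marker, averaged 8.46 in Treg and 3.74 in CD4 libraries of normal marrow and 4.49 and 2.89 in early marrow. It averaged 5.05 and 8.15 in peripheral and 42.1 and 48.9 in core marrow. IKZF2, another, was lower in Treg in normal (0.245 and 1.07) and early marrow (0.912 and 4.33). It was higher in Treg in peripheral (2.37 and 1.86) and core marrow (8.85 and 2.73). Macrophage markers (8 genes) summed to 7411 to 8492 in the normal Treg libraries and 139 to 389 in normal CD4 libraries. Treg is therefore used below only as the name of the sort, in every kind of marrow. In bulk RNA, fewer cells of a type and less RNA per cell cannot be told apart.

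Taken as a whole the machinery was lowest in granulocytes. The summed level of the 40 genes ranged from 915 to 1296 normalised reads over the 15 granulocyte libraries, from 1621 to 2960 in CD4, from 1298 to 2428 in CD8 and from 1687 to 2819 in Treg libraries. No granulocyte library reached the lowest library of any T cell sort, although the lowest CD8 library was only just above. Of 27 members with a group mean of at least 20, the highest of the 16 groups was a Treg group for 14, a CD4 group for 8, a granulocyte group for 3 and a CD8 group for 2. The lowest group was a granulocyte group for 16. The matching shares over all genes were not counted, so these counts only describe the members. Too few reads for a test in any population were found for 7 members: the secreted stress factor MANF, the sensors ERN1 and ATF6, the degradation factor DERL2, and the translocation subunits SSR1, SEC61G and SPCS2. MANF had 6 reads over all libraries. Granulocytes had 26 testable members, CD4 cells 31, CD8 cells 29 and the Treg sort 33.

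Granulocytes and CD4 T cells of normal marrow were compared first, as a myeloid and a lymphoid sort without tumour. Promyelocyte markers (4 genes) summed to 943 to 1631 in the normal CD4 and 42.0 to 141 in the normal granulocyte libraries. T cell markers (8 genes) summed to 557 to 662 in the CD4 libraries. Plasma cell markers (7 genes) summed to 155 to 210 in CD4 and 3.04 to 7.77 in granulocytes. The part of these other cells in the differences below was not tested. Of 30 members tested, 17 were lower and 2 were higher in granulocytes at an adjusted p under 0.05 (limma across all genes). These sorts differ widely: 67.6% of 4585 genes were called, 34.4% higher and 33.2% lower. The members' median log2 difference was -0.65, against -0.07 over all genes, and 23 of the 30 were negative. All 4 disulphide isomerases fell, as did the 1 tested lectin chaperone, 4 of 6 luminal chaperones and cofactors and 6 of 8 translocation subunits. In contrast, 1 of 3 stress regulators and 1 of 6 degradation factors fell, and 1 of each rose. No KDEL receptor of 2 passed.

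Folding enzymes of several kinds were lower in granulocytes. Calreticulin, the soluble lectin that holds glycoproteins until they fold, was at 115.8, 100.5, 92.0 and 100.6 normalised reads in the 4 normal granulocyte libraries and at 284, 379, 424 and 439 in the CD4 libraries. PDIA6, a disulphide isomerase that associates with BiP, was at 15.7, 30.7, 11.3 and 12.6 in granulocytes and at 145, 87.8, 103 and 114 in CD4 cells. P4HB, the founding disulphide isomerase, was at 67.6, 78.7, 56.0 and 54.0 against 205, 179, 226 and 218. For all 3 genes every granulocyte library was below every CD4 library. CALR differed by -1.84 on the log2 scale (SE 0.157, adjusted p = 6.47e-11), PDIA6 by -2.49 (SE 0.217, adjusted p = 1.01e-10) and P4HB by -1.64 (SE 0.162, adjusted p = 1.04e-09). PDIA4, a multidomain isomerase with few reads, was at 0.926, 1.5, 0.868 and 0.370 in granulocytes and at 1.10, 13.0, 1.81 and 4.55 in CD4, a difference of -0.72 (SE 0.277, adjusted p = 0.0228) that overlapped between groups and was no longer called without any 1 of 4 libraries (adjusted p 0.0635 to 0.157).

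The central chaperone moved less. HSPA5 was at 20.4, 27.0, 16.9 and 24.4 in normal granulocytes and at 39.6, 38.9, 40.7 and 54.0 in normal CD4 cells. The groups did not overlap, and the difference was -0.86 (SE 0.258, adjusted p = 0.0051). HSP90B1, the ER member of the HSP90 family, was at 14.8, 8.25, 3.91 and 9.99 against 11, 25.9, 15.4 and 37.5, groups that overlapped and a difference of -0.96 that did not pass (adjusted p = 0.0700). CRELD2, a secreted cofactor induced by ER stress, was at 8.34, 6.75, 8.25 and 7.40 against 31.9, 38.9, 24.4 and 30.7 without overlap, a difference of -1.59 (SE 0.198, adjusted p = 7.27e-08).

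Entry into the ER followed the folding enzymes. SSR4, a subunit of the translocon-associated complex, was at 32.4, 30.7, 29.5 and 26.6 in granulocytes and at 81.5, 128, 158 and 160 in CD4 cells. SEC61A1, the pore-forming subunit of the channel, was at 59.3, 57, 55.6 and 54.0 against 173, 130, 165 and 154. Neither gene's groups overlapped. The differences were -1.96 for SSR4 (SE 0.198, adjusted p = 1.65e-09) and -1.39 for SEC61A1 (SE 0.146, adjusted p = 3.56e-09). SEC61B, the small tail-anchored channel subunit, was closer, at 117, 202, 128 and 156 against 235, 200, 206 and 204, with overlap and a difference of -0.51 (SE 0.177, adjusted p = 0.0137). It was not called without granulocyte library 1 or 3 (adjusted p 0.0513 to 0.0663).

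The regulators split. XBP1, the transcription factor whose RNA is spliced by IRE1, was at 47.2, 60.0, 64.7 and 60.7 in granulocytes and at 119, 112, 137 and 111 in CD4, a difference of -1.0 without overlap (SE 0.155, adjusted p = 2.57e-06). HERPUD1, a membrane protein of the degradation complex and a known target of the response, was lower too, at 35.2, 48.7, 34.3 and 47.0 against 92.5, 57.6, 87.8 and 61.4 (-0.79, SE 0.201, adjusted p = 0.0012). EDEM1, which extracts misfolded glycoproteins for degradation, went the other way. It was at 38.9, 36.0, 53.0 and 44.8 in granulocytes and at 13.2, 14.4, 19.0 and 14.8 in CD4, a difference of 1.28 without overlap (SE 0.229, adjusted p = 1.89e-05). DDIT3 (CHOP), the stress factor tied to cell death, was at 31.5, 35.2, 25.2 and 40.3 against 24.2, 20.2, 17.2 and 17.1, higher by 0.64 (SE 0.237, adjusted p = 0.0190). ATF4, the PERK-dependent factor, differed by 0.33 (adjusted p = 0.125) and KDELR2, a KDEL receptor, by -0.25, and neither passed.

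Both rises depended on scaling. When values were scaled to the library total instead, the median of all genes moved from -0.07 to -0.74, EDEM1 stood at 0.50 (adjusted p = 0.0631) and DDIT3 at -0.14, and 25 members were called lower and 0 higher, beside 925 genes higher and 2415 lower over all genes (1578 and 1520 with the deposited scaling). Relative to the median of all genes EDEM1 and DDIT3 remained on the higher side under both scalings. Among the 2 normal granulocyte libraries without the lung transcripts and the 1 such CD4 library, 12 members were called.

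**Figure D1:**
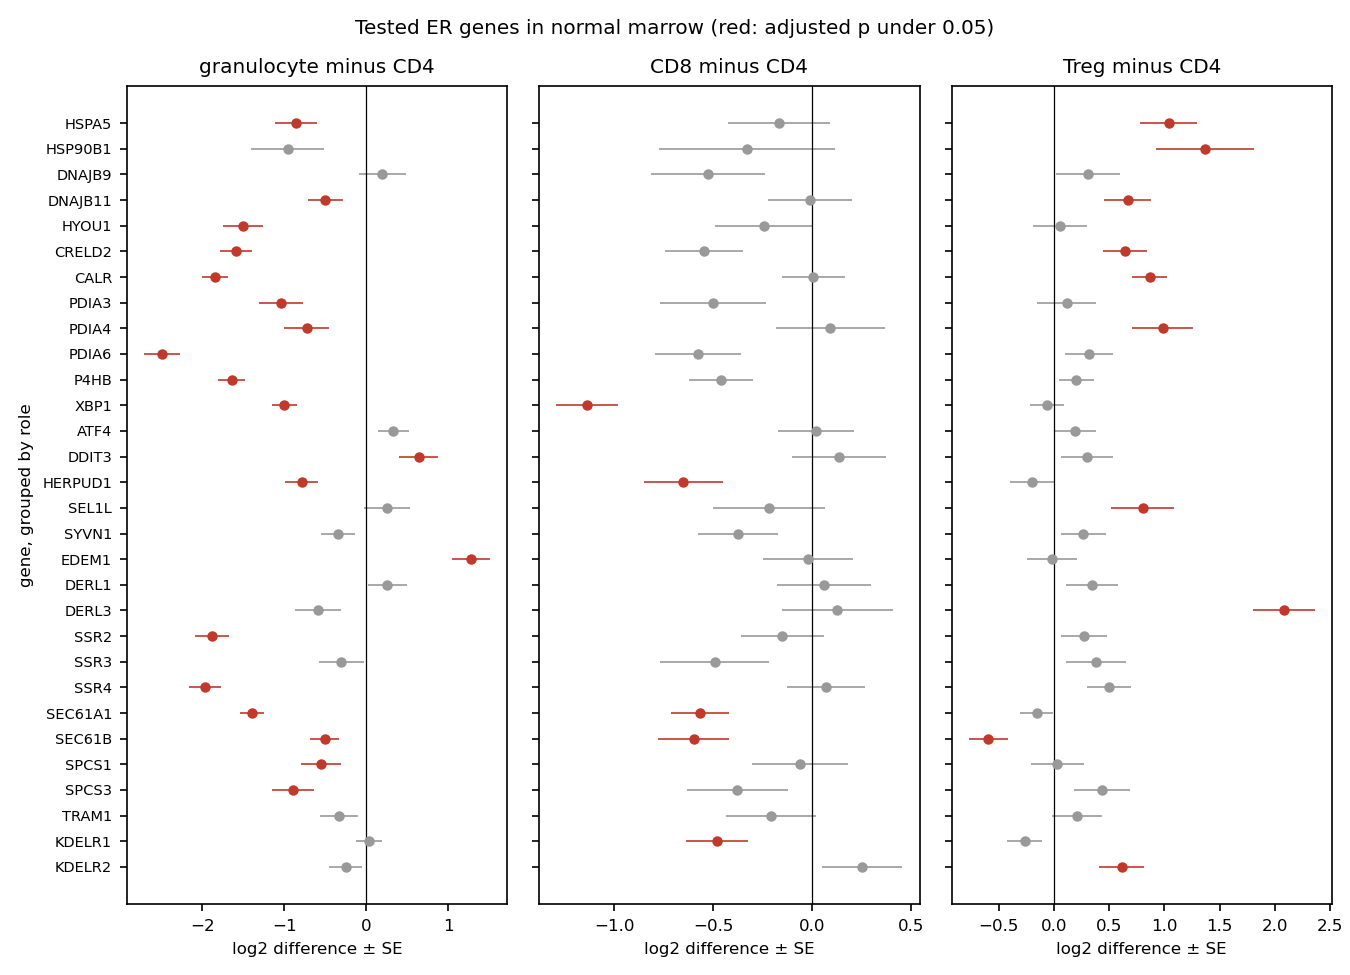
Log2 difference from CD4 T cells in normal marrow (horizontal axis, mean with SE bars, limma) for the 30 tested ER genes (vertical axis) in granulocytes, CD8 and Treg sorts; red points pass an adjusted p under 0.05. Granulocyte points lie mostly to the left, with EDEM1 at 1.28, and the farthest Treg point to the right is DERL3 at 2.08.

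The same contrast was made within the other kinds of marrow, each on its own libraries. In early marrow 15 of 32 members were lower and 2 higher in granulocytes (50.5% of all genes called, 26.2% higher and 24.4% lower), and in peripheral marrow 15 of 31 were lower and 2 higher (59.1%, 28.4% and 30.7%). CALR was at 137, 85.6, 79.3 and 90.5 in early granulocytes and at 663, 545, 466 and 714 in early CD4 cells, a difference of -2.57, and differed by -2.49 in peripheral marrow. EDEM1 was the gene higher in granulocytes in both, by 1.37 and 0.91, together with ATF4 (0.94 and 0.59). Scaled to the library total, no member was called higher in either. In the core 7 of 29 members were lower and 0 higher (39.3%, 18.5% and 20.8%), a share lower that is near that of all genes. The 7 were HSPA5 (-1.77), HSP90B1 (-1.70), PDIA6 (-1.68), CALR (-1.66), CRELD2 (-1.09), SSR4 (-0.95) and SSR2 (-0.92). The first 2 spread widely in core granulocytes. HSPA5 averaged 25.1 (SD 18.9) there and 75.2 (SD 7.04) in core CD4, and HSP90B1 5.99 (SD 6.77) and 24.2 (SD 8.68). The core granulocyte library lowest in HSPA5 was the library without lung transcripts. EDEM1 was at 19.8, 13.7 and 24.7 in core granulocytes. The core count was 2 without the libraries that held lung transcripts and 15 with scaling to the library total.

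CD8 cells differed little from CD4 cells in normal marrow. Of 30 members 5 were lower and 0 higher, beside 11.7% of all genes called (5.43% higher and 6.26% lower). The clearest was XBP1, at 55.7, 57.6, 47.4 and 48.6 in CD8 cells, each below the lowest CD4 library at 111 (difference -1.14, SE 0.155, adjusted p = 1.00e-05). SEC61A1 was at 110, 111, 94.8 and 96.5, again without overlap (-0.57, SE 0.146, adjusted p = 0.0094). SEC61B (-0.60), HERPUD1 (-0.65) and KDELR1 (-0.48), the last a retrieval receptor, were also called, with adjusted p from 0.0249 to 0.0446, and each lost the call without 1 of several libraries. Under the other settings the count ran from 1, in a fit of all 55 libraries, to 9, with scaling to the library total.

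Among the normal sorts, several chaperones were highest in Treg. Of 30 members 9, PDIA4 and DERL3 included, were higher and 1 lower than in CD4 cells, beside 27.0% of all genes called (16.7% higher and 10.3% lower), and 24 of the 30 differences were positive, with a median of 0.31 against 0.11 for all genes. HSPA5 was at 95.2, 126, 48.1 and 125 in normal Treg, against 38.9 to 54.0 in CD4 (1.04, SE 0.258, adjusted p = 0.0035). Its lowest value, within the CD4 range, was in library 3, the normal Treg library without lung transcripts (their sum was 47.1, against 1811 to 2443 in the other 3). CALR was at 595, 637, 751 and 797, all above the highest CD4 library at 439 (0.87, SE 0.157, adjusted p = 0.000104). HSP90B1 was at 39.8, 125, 25.5 and 92.7, lowest in the same library and there within the CD4 range (1.37, SE 0.444, adjusted p = 0.0324). PDIA4 was at 14.4, 10.2, 11.8 and 12.0 against 1.10 to 13.0, a difference of 0.99 given without its p, because apart from 1 CD4 library it reached the filter on low values through the Treg libraries. KDELR2 was at 69.7, 62.1, 65.8 and 65.4 against 56.2, 23.0, 41.6 and 54.0 (0.61, SE 0.204, adjusted p = 0.0250). The degradation adaptor SEL1L (0.80), the BiP cochaperone DNAJB11 (0.67) and CRELD2 (0.64) were also higher, and SEC61B was lower (-0.59, adjusted p = 0.0131).

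DERL3 was read mainly in normal Treg. It encodes a derlin of the degradation channel, and was at 11.1, 23.1, 41.2 and 18.5 normalised reads in the 4 normal Treg libraries (10, 36, 42 and 17 reads). In normal CD4 libraries it was at 2.20, 1.44, 2.71 and 1.71, from 1 to 3 reads each, and in normal CD8 libraries at 7.48, 1.3, 1.63 and 1.37. It was at 0 in 14 of 15 granulocyte libraries, with 1 read in the other. Each normal Treg library was above every normal library of the other sorts. The difference from CD4 was 2.08 on the log2(value + 4) scale, which understates changes of genes with few reads. DERL3 reached the filter on low values through the normal Treg libraries alone, so it had to differ from the other groups, and its differences are given here and below as a description, without p-values. The regulators did not share the pattern: XBP1 was at 126, 126, 98.2 and 109 in Treg, a difference of -0.06, and ATF4 (0.19), DDIT3 (0.30) and HERPUD1 (-0.20) did not pass.

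Summed markers of other cells moved with this pattern, though not every marker did. The 7 genes matched of 12 plasma cell markers summed to 444 to 681 normalised reads in normal Treg, 155 to 210 in normal CD4, 3.04 to 7.77 in normal granulocyte and 55.6 to 128 in core Treg libraries, and none of the 7 was at 0 throughout normal Treg. JCHAIN, the joining chain of secreted antibody, averaged 355 in normal Treg, 31.7 in normal CD4 and 29.5 in core Treg libraries. In the same order the plasma cell receptor TNFRSF17 averaged 12.2, 0.275 and 1.12, and FKBP11 13.5, 7.25 and 2.49. MZB1 (95.4, 73.6 and 25.9) and TXNDC5 (55.3, 43.9 and 21.3) differed less between normal Treg and normal CD4. SDC1 was lower in normal Treg than in normal CD4 (14.8, 22.8 and 4.08). PRDM1 was highest in core Treg (1.16, 0.510 and 5.70). The plasma cell list includes the folding enzymes TXNDC5 and FKBP11. Macrophage markers were also higher, as given above, and T cell markers (8 genes) summed to 220 to 357 in normal Treg against 557 to 662 in normal CD4. Promyelocyte markers (4 genes) summed to 2348 to 6839 against 943 to 1631, and neutrophil markers (6 genes) to 3346 to 7848 against 263 to 1598. B cell markers (6 genes) summed to 68.7 to 137 against 23.1 to 42.5, and dendritic cell markers (3 genes) to 14.2 to 23.6 against 59.7 to 74.9. The part of all these markers in the chaperone levels was not tested. Without the lung-transcript libraries CD4 and Treg keep 1 normal library each, and 2 members, CALR and KDELR2, were called. HSPA5 then differed by 0.28.

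Outside normal marrow no difference between the Treg sort and CD4 cells passed. No member was called in early, peripheral or core marrow with limma (2.82%, 0% and 0% of all genes called), with 1, 2 and 1 members at an unadjusted p under 0.05 and 0 in each with edgeR and DESeq2. In the core CALR was at 379, 278 and 352 in Treg and at 305, 279 and 364 in CD4, a difference of 0.09 (SE 0.311).

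**Figure D2:**
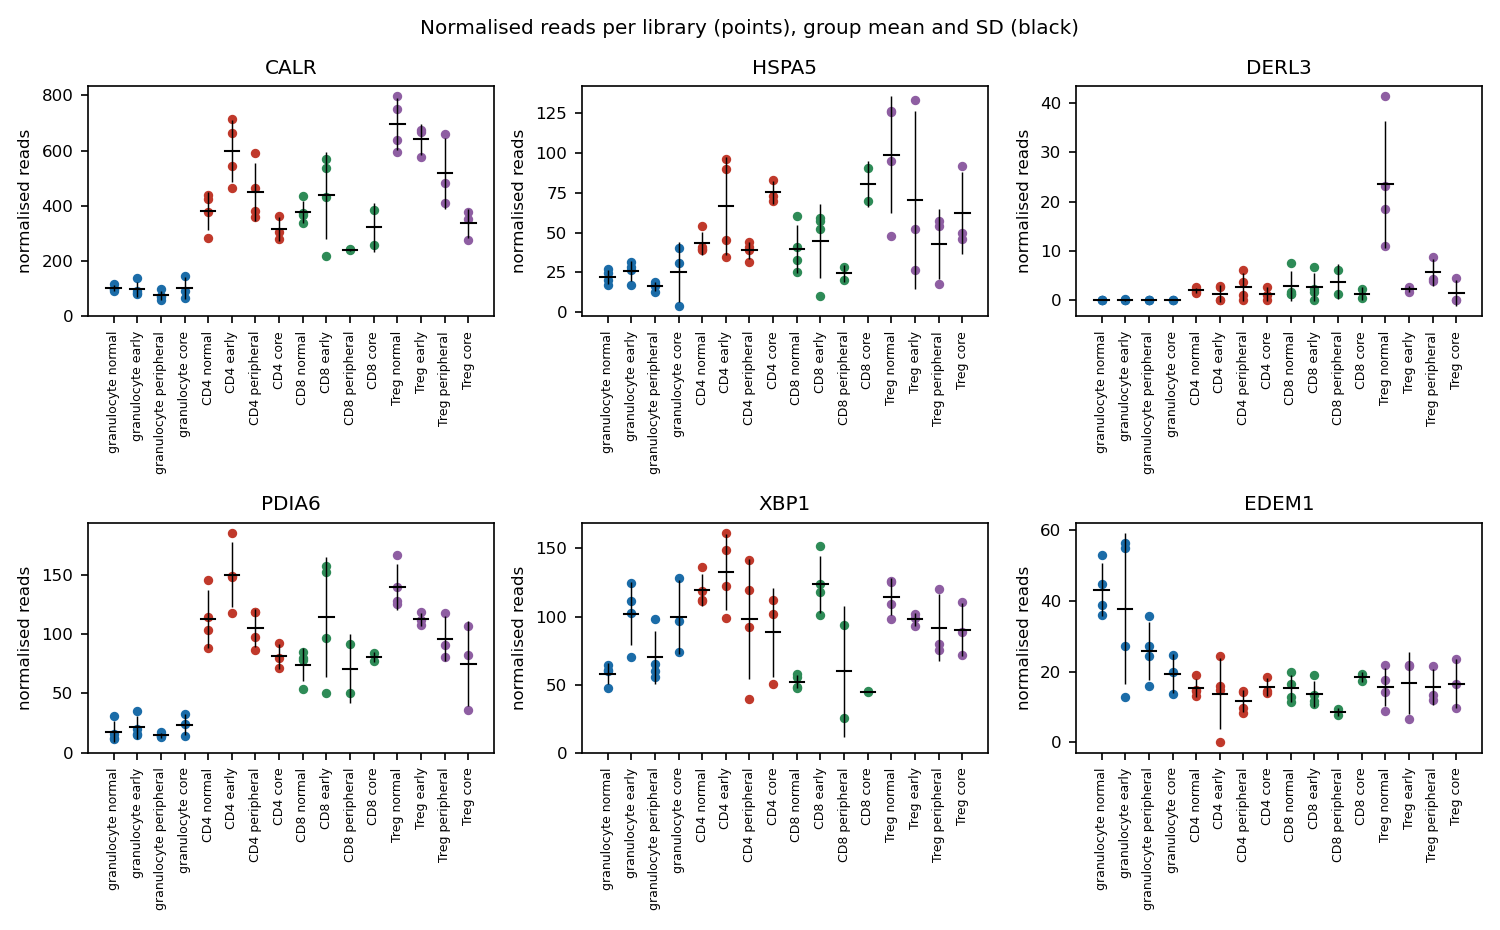
Normalised reads (vertical axis) of CALR, HSPA5, DERL3, PDIA6, XBP1 and EDEM1 in every library of the 16 groups (horizontal axis); points are libraries, bars are the mean and SD. DERL3 is above 10 in all 4 normal Treg libraries, and CALR in core Treg (278 to 379) lies below normal Treg (595 to 797).

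Changes with metastasis were then compared within each sort. They were few: of 16 comparisons, 12 had no member called by limma, 3 had 1 and 1 had 5. In the 12 with none, between 0 and 9 members were at an unadjusted p under 0.05, edgeR called 0 or 1 and DESeq2 0 to 2. The share of all genes called was 4.78% in early and 8.14% in peripheral granulocytes against normal ones, 0% for both in CD4, 0% in peripheral and 1.19% in core CD8, and 0.167% in early and 2.52% in peripheral Treg. The exception was the Treg sort between core and normal marrow, where 5 of 33 members, DERL3 included, were lower and 0 higher, beside 6.24% of all genes called (4.46% lower), 28 of the 33 differences were negative, and the median was -0.41 against -0.11 for all genes.

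Those 5 were chaperones, a folding enzyme and a degradation factor. CALR was at 379, 278 and 352 in core Treg against 595 to 797 in normal Treg (-1.04, SE 0.206, adjusted p = 0.0038). DERL3 was at 4.49, 0 and 0 in the core, 4 reads in 3 libraries, against 11.1 to 41.2, a difference of -2.30. CRELD2 was at 24.7, 13.1 and 29.9 against 42.0 to 61.1 (-1.10, SE 0.313, adjusted p = 0.0397). In none of these did a core library reach a normal one. PDIA6 was at 107, 36.0 and 82.3 against 125 to 167 (-0.98, SE 0.284, adjusted p = 0.0457), and SDF2L1, a BiP-complex cofactor, at 4.49, 3.27 and 4.49 against 8.85 to 22.9 (-1.31, SE 0.385, adjusted p = 0.0481). HSPA5 at 92.0, 45.8 and 49.4 overlapped normal Treg and did not pass (-0.61, SE 0.516, adjusted p = 0.594).

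CALR stayed called in every fit except that without lung-transcript libraries, which leaves 1 normal Treg library and 2 core ones and called 0 members. CRELD2, PDIA6 and SDF2L1 lost the call when 1 of 5, 10 and 9 libraries was left out, among them each of 2 or more normal Treg libraries, with adjusted p up to 0.207, 0.288 and 0.164. In the intermediate groups DERL3 was at 1.65, 2.74 and 2.54 in early and 4.01, 8.86 and 4.31 in peripheral Treg, and CALR at 676, 577 and 669 and at 661, 483 and 412. Early and peripheral DERL3 were below every normal Treg library. Core-to-normal differences of Treg were also set against those of CD4 cells. That of CALR differed by -0.78 without passing (SE 0.355, adjusted p = 0.262). DERL3 was the 1 of 34 members called there (3.59% of all genes called, 2.83% lower), but with 1 to 3 reads in each normal CD4 library it could hardly fall in CD4 cells, and the call is no test of a difference between the sorts. The plasma cell, macrophage and T cell marker sums given for normal Treg change along the same contrast. In core Treg macrophage markers summed to 183 to 2677 and T cell markers to 549 to 1084. Promyelocyte markers summed to 434 to 2556 there and neutrophil markers to 2850 to 5442. B cell markers summed to 6.54 to 16.8 and dendritic cell markers to 9.81 to 62.9 in core Treg. FOXP3 was at a mean of 7.73 there against 18.6 in core CD4. The part of these markers was not tested.

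In the other sorts single genes changed. SSR4 rose in core granulocytes, at 56.2, 70.1 and 57.2 against 32.4, 30.7, 29.5 and 26.6 in normal ones (0.94, SE 0.189, adjusted p = 0.0031), beside 12.6% of genes called (6.07% higher). It was at 56.0, 37.2, 51.0 and 40.4 in early and 48.2, 52.9, 42.3 and 40.9 in peripheral granulocytes, so every library of the tumour-bearing groups was above every normal one. T cell markers (8 genes) summed to 237 to 302 in normal and 63.4 to 102 in core granulocytes. That sum was mostly CD3D, which averaged 261 in normal and 63.9 in core granulocytes. CD4 was also lower in the core (0.791 and 0.456). The other T cell markers were higher there, among them LCK (1.76 and 8.10) and CD2 (2.05 and 6.12). Macrophage markers summed to 161 to 227 in normal and 326 to 426 in core granulocytes. The part of these markers in the SSR4 difference was not tested. SEC61B fell in core CD4 cells, at 104, 82.7 and 120 against 235, 200, 206 and 204 (-1.03, SE 0.222, adjusted p = 0.0106), beside 3.79% of genes called (1.79% lower). Without core library 2 its adjusted p was 0.102. Along the same contrast the plasma cell markers went from 155 to 210 down to 55.6 to 89.7 and the T cell markers from 557 to 662 up to 881 to 1197, and their part was not tested. XBP1 rose in early CD8 cells, at 152, 118, 124 and 101.4 against 55.7, 57.6, 47.4 and 48.6 (1.17, SE 0.301, adjusted p = 0.0287), beside 4.85% of genes called (1.33% higher). That call was lost without any 1 of 6 libraries (adjusted p 0.0564 to 0.0978), though no early library overlapped a normal one. T cell markers summed to 349 to 579 in early and 1010 to 1226 in normal CD8 libraries, neutrophil markers (6 genes) to 4002 to 32786 and 409 to 3526, and dendritic cell markers (3 genes, XCR1 at 0) to 70.2 to 120 and 14.7 to 29.1. None of these ranges overlapped, and their part in the XBP1 difference was not tested.

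In early granulocytes XBP1 was at 111, 124, 70.4 and 103 against 47.2 to 64.7, but the difference of 0.75 did not pass with limma (SE 0.224, adjusted p = 0.0636). It passed with edgeR and with DESeq2.

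**Figure D3:**
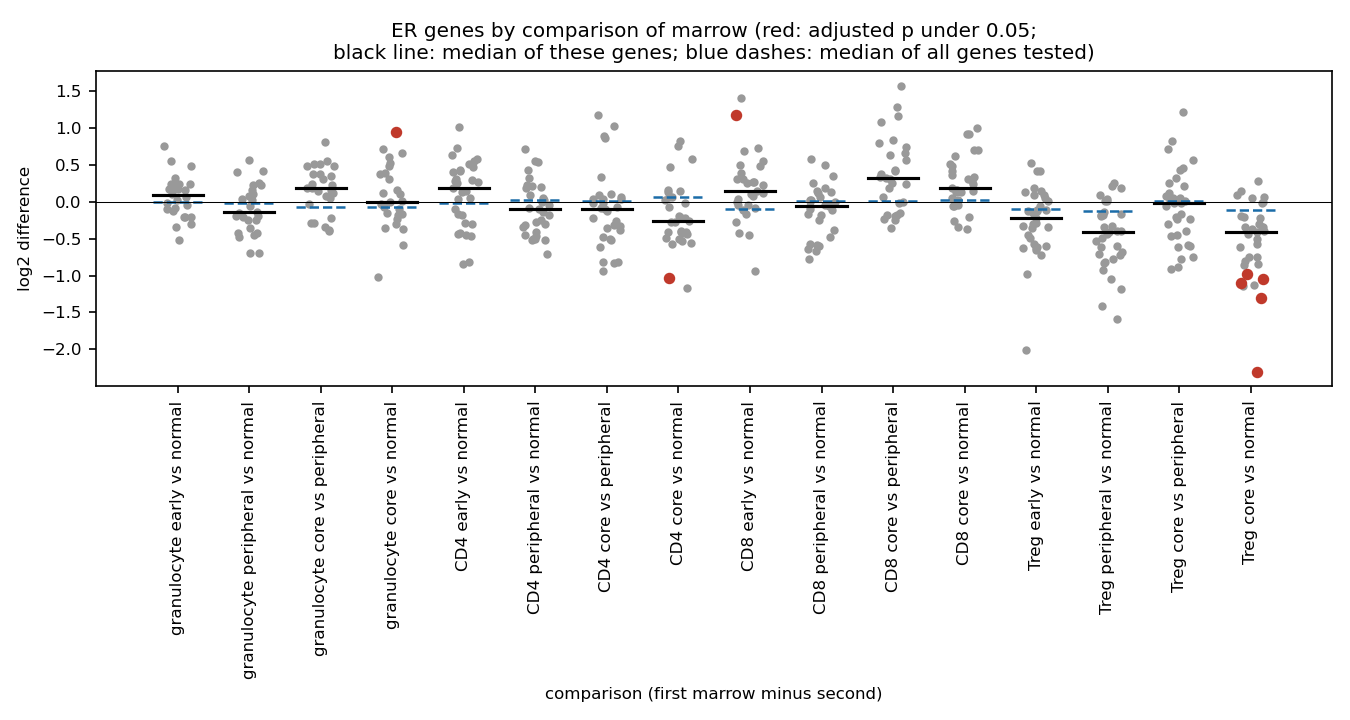
Log2 differences (vertical axis) of the tested ER genes in each of the 16 marrow comparisons (horizontal axis), 1 point per gene; black lines are the members' medians and blue dashes the medians of all genes tested. Treg core against normal has the members' median at -0.41 and all genes at -0.11.

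Core and peripheral marrow of the late stage come from the same animals, so this contrast sets the lesion against marrow away from it. T cell markers summed to 881 to 1197 in core and 332 to 767 in peripheral CD4. In CD8 they summed to 1035 to 1459 and 704 to 992, and in Treg to 549 to 1084 and 95.2 to 554. Promyelocyte markers summed to 719 to 1925 in core and 1582 to 6042 in peripheral CD4. Macrophage markers summed to 326 to 426 in core and 118 to 213 in peripheral granulocytes. The part of these markers in the differences below was not tested. No member passed in any sort with limma (1.68% of genes called in granulocytes, 2.01% in CD4, 1.27% in CD8 cells, 1.52% in the Treg sort), and in the same order 3, 9, 3 and 4 members were at an unadjusted p under 0.05. HSPA5 was at 73.0, 83.1 and 69.6 in core CD4 against 44.1, 31.5, 41.2 and 39.2 in peripheral CD4 cells, without overlap (0.89, SE 0.292, adjusted p = 0.146). In CD8 cells it was at 70.0 and 90.4 against 28.3 and 20.3 (1.58, SE 0.583, adjusted p = 0.211). DESeq2 called HSPA5 in both. Lung transcripts summed to 1027 and 2211 in the core and 47.6 and 49.3 in the peripheral CD8 libraries, so in CD8 cells lesion and lung transcripts cannot be told apart. In CD4 cells the core libraries with them were at 73.0 and 83.1, and the 1 without them was at 69.6. The 1 peripheral CD4 library with them was at 44.1, and the others were at 31.5 to 41.2. The part of lung transcripts in the CD4 difference was not tested. In Treg the difference was 0.57 (SE 0.552, adjusted p = 0.673), with 92.0 in the core library that held lung transcripts and 45.8 and 49.4 in the others, and in granulocytes 0.19 (SE 0.412), where the core libraries spread from 3.96 to 40.3 and the sign turned when core library 2 or 3 was left out.

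ATF4 was also higher in the core in every sort without passing in limma, and DESeq2 called it in granulocytes and CD8 cells. It was at 167, 190 and 131 against 100, 96.0, 87.7 and 79.4 in granulocytes (0.81, adjusted p = 0.070), at 111, 141 and 123 against 82.3, 57.9, 53.0 and 47.4 in CD4 (1.03, SE 0.335, adjusted p = 0.142), at 112 and 124 against 54.0 and 53.2 in CD8 (1.08, SE 0.344, adjusted p = 0.130) and at 123, 88.3 and 91.3 against 72.2, 73.1 and 73.3 in Treg (0.43, adjusted p = 0.486). No core library overlapped its peripheral group in any of the 4. With 2 to 4 libraries in a group, and the share of all genes so separated not counted, this describes the values and is no test. The sorts may also come from the same animals. SSR4 in core Treg was at 158, 108 and 105 against 271, 188 and 185 (-0.78, SE 0.244, adjusted p = 0.112), and passed when the animal was added as a block (SE 0.207, adjusted p = 0.0365). The core-to-peripheral differences of granulocytes, CD8 and Treg were also set against that of CD4, and 0 members passed (limma, with 0.0616%, 0.231% and 0% of genes called; 0 with edgeR and DESeq2; 8, 5 and 1 at an unadjusted p under 0.05).

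Other genes of the pathway were read in 4 lists, which held 17 further folding enzymes, 21 glycosylation and signal recognition subunits, 27 degradation and stress genes and 28 genes of ER to Golgi transport. Normal granulocytes were lower than CD4 cells for 10 of 12 tested folding enzymes and higher for 1, with SIL1, the exchange factor of BiP, at -3.17, TXNDC5, a plasma-cell-rich disulphide isomerase, at -3.17, the prolyl isomerase FKBP2 at -2.18 and ERP29 at -1.79. The background was 33.2% of all genes lower and 34.4% higher. Of 13 glycosylation and recognition genes 5 were lower and 1 higher, a share lower that is near this background, the lower ones led by the oligosaccharyltransferase subunits KRTCAP2 (-3.54), DAD1 (-2.64), DDOST (-2.11) and RPN2 (-1.89). Transport genes were lower for 9 of 23, again near the background, among them the cargo receptor LMAN1 (-1.41), and higher for 2. Degradation and stress genes split evenly, with 4 of 16 higher, among them the asparagine synthetase ASNS (1.92) and the BAX inhibitor relative TMBIM6 (1.39), and 4 lower, among them EDEM2 (-0.96).

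Between core and peripheral marrow 1 of 17 tested degradation and stress genes passed in granulocytes and 1 of 15 in each T cell sort, beside the 1.27% to 2.01% of all genes given above. In granulocytes 11 of the 17 were negative, with a median of -0.24 against -0.06 for all genes. PPP1R15A (GADD34), which restores translation after ATF4 induction, averaged 98.9 in core against 9.49 in peripheral granulocytes (2.93, SE 0.553, adjusted p = 0.0079). It averaged 153 against 32.6 in CD4 cells (2.18, SE 0.388, adjusted p = 0.0048) and 123 against 25.7 in Treg (2.30, SE 0.514, adjusted p = 0.0407). In CD8 cells it averaged 86.9 against 19.1 and was not called, while ATF3, another stress-induced factor, rose by 3.39 (SE 0.740, adjusted p = 0.0314). The part of the cell type markers in these differences was not tested. Against normal marrow, beside 3.79% of all genes called, core CD4 cells were lower for 3 of 13 folding enzymes, ERP29 (-1.08), TXNDC5 (-1.21) and PDIA5 (-1.56). Of 15 degradation and stress genes EDEM2 was lower (-1.09) and PPP1R15A higher (1.93, SE 0.388, adjusted p = 0.0070). TXNDC5 is on the plasma cell list, whose sums fell along this contrast as given above. Core Treg, beside 6.24% of all genes called, was lower for 1 of 14 glycosylation and recognition and 2 of 23 transport genes, DDOST (-1.05), the LMAN1 partner MCFD2 (-1.90) and SEC24D (-1.27).

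Within groups the members varied together only weakly. After group means were removed, the median correlation among 26 members tested in every population was 0.0993 over 55 libraries, against 0.000892 over 3030 genes, all from the same libraries and so sharing depth. The closest pair was HSP90B1 with TRAM1, a translocating chain protein (0.750), followed by CRELD2 with TRAM1 (0.664), CALR with P4HB (0.644) and CRELD2 with HSPA5 (0.640). The 5 genes whose pattern was nearest to HSPA5 were MBTPS1 (0.760), NPTN (0.731), CUL1 (0.711), PABPC1 (0.706) and NEDD4 (0.701). None of them is a member, but MBTPS1 is on the list of further degradation and stress genes.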

How the data were processed

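RNA of sorted marrow cells was sequenced by MARS-seq. Reads were trimmed with fastp 0.20.0, mapped by STAR 2.6.0c on GRCm38 (mm10) and handled with DESeq2 1.30.1, per the submitters' processing notes. The sources used here do not give the handling of molecular tags, gene counting or strand. The deposited signal values are reads divided by 1 factor per library, found from the values: 100% were whole to within 0.01 of a read. Of 15734 rows, 5 carry no symbol (at most 0.0124% of a library). The members' rows carry human Ensembl gene identifiers, although reads were mapped to the mouse genome. Whether this bears on members with few reads was not tested. Exons of MANF, PDIA3, PDIA6, SYVN1, DERL2, SPCS1 and SPCS3 overlap those of another listed gene, so reads could be shared.

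The planned count test was replaced, because the values are scaled, by limma 3.58.1 (R 4.3.3; trend, robust) on log2(value + 4). A gene was tested if it reached 10 in a number of libraries equal to the size of the smallest group, with Benjamini-Hochberg adjustment over all of them and a threshold of 0.05. Differences are on that scale. There was 1 fit per sort, 1 of the normal libraries and 1 of all 55, which gave 22 comparisons, and 7 more were added after the data were seen. The labels state separate animals for no group, so p-values measure library spread, which may be technical. The procedure was tested on simulated data.

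Titles gave the groups, also for late core granulocytes, which have bone marrow as their tissue label. Core and peripheral marrow share animals per the series design, identified by the file-name number. Deviations of such pairs correlated from -0.337 to 0.510 in granulocytes, 0.219 to 0.292 in CD4, 0.111 in CD8 and 0.0740 to 0.241 in Treg. Pairs from different animals ranged from -0.535 to 0.529, -0.486 to 0.323, -0.111 and -0.194 to 0.087 in the same order. With 2 libraries in each CD8 group, the CD8 values had to be equal in size. In granulocytes and CD4 the ranges overlap, so these values do not decide the pairing.

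The members and lists were chosen with earlier results of these data known. Genes were named by a rule: called members up to 6 a direction, 10 fixed members, untested members and up to 4 genes of each related list. Settings also tried were edgeR 4.0.16 and DESeq2 1.42.0 on recovered reads, TMM and RLE scaling, other filters and pseudocounts, blocks and left-out libraries.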

Additional observations from a re-analysis of the deposited data

Results flagged for a closer look

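Among 160 combinations of a gene and a group of at least 4 libraries, 10 held a library far from the others, where chance would give about 1 in 20. The count is near that share, so the libraries below are listed only as a description. HSPA5 was at 54.0 normalised reads in the fourth normal CD4 library, with the others at 38.9 to 40.7, and at 10.04 in the third early CD8 library, with the others at 52.3 to 59.1. HSP90B1 was at 10.8 in the third peripheral granulocyte library (others 5.73 to 6.2), and PDIA6 at 17.5 in the second (others 13.5 to 13.8). In the third normal Treg library SEC61B was at 195 (others 118 to 127) and SSR4 at 236 (others 160 to 171). DERL3 was at 0.279 in the fourth early granulocyte library, which is 1 read, with the others at 0, and at 7.48 in the first normal CD8 library (others 1.3 to 1.64). SDF2L1 was at 0.370 in the fourth normal granulocyte library, also 1 read, with the others at 0. It was at 8.81 in the first normal CD4 library (others 4.32 to 4.55).

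The core-to-normal difference of DERL3 differed between the Treg sort and CD4 cells by -2.09, and was called with limma in 1 fit of 55 libraries. This is no fair test of the sorts: DERL3 had 1 to 3 reads in each normal CD4 library, reached the filter on low values through the normal Treg libraries alone, and was not called with edgeR, DESeq2 or pseudocount 1.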

How the results depend on the processing

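Of 296 counts of called members under other settings, 240 stayed within 1.5 times the reported count. The others were as follows. Early granulocytes had 1 (XBP1) with edgeR, DESeq2, TMM or a fit of those groups only. Peripheral granulocytes against normal had 1 with DESeq2 or library-total scaling and 3 in a fit of those groups only, and core against peripheral had 1 with DESeq2 and 4 without the lung-transcript libraries. Core against normal granulocytes (1 reported) had 2 with edgeR, library-total scaling or those groups only, 3 with TMM, RLE or no lung-transcript libraries and 5 with DESeq2. Core CD4 had 1 against peripheral with DESeq2, and against normal (1 reported) 2 with edgeR or those groups only, 3 with DESeq2 and 0 without lung-transcript libraries. Early CD8 (1 reported) had 2 with edgeR, DESeq2 or the title-number replicate block and 0 without a filter or without lung-transcript libraries, and core against peripheral CD8 had 2 with DESeq2 and 1 in those groups only. Early and peripheral Treg had 1 each in those groups only, and core against peripheral Treg had 1 with the animal as replicate block. Core against normal Treg (5 reported) had 3 with edgeR, TMM, library-total scaling or pseudocount 1, 2 with DESeq2, RLE, no filter or the title block, and 0 without lung-transcript libraries. In normal marrow granulocytes (19 reported) had 12 without lung-transcript libraries. CD8 (5) had 3 with edgeR, 9 with library-total scaling, 2 without a filter or without lung-transcript libraries and 1 in the fit of all 55. Treg (10) had 6 in the fit of all 55 and 2 without lung-transcript libraries. The DERL3 interaction (1) became 0 with edgeR, DESeq2, pseudocount 1 and without lung-transcript libraries. Granulocytes against CD4 had 8 in early marrow (17 reported) without lung-transcript libraries, and in the core (7) 15 with library-total scaling, 11 in the fit of all 55 and 2 without lung-transcript libraries. The causes were not tested, except that left-out libraries leave fewer samples: without lung-transcript libraries the granulocyte core, CD4 normal, CD4 core and Treg normal groups hold 1 library each, assumed to vary like the others, so those counts say nothing on dependence.

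Some differences turned sign. HSPA5 in core against peripheral granulocytes (0.19) was -0.0027 with library-total scaling, -1.31 without lung-transcript libraries (1 core against 3 peripheral libraries) and -0.28 to 0.963 over left-out libraries, below 0 without core library 2 (-0.28) or 3 (-0.10). With library-total scaling DDIT3 in normal granulocytes was -0.14 and ATF4 in peripheral ones -0.0156 against CD4. That scaling moved the median of all genes by more than 0.1 in early (-0.02 to -0.68), peripheral (-0.11 to -0.58) and core (-0.21 to -0.79) granulocytes against CD4, in normal CD8 (0.03 to -0.15), and in granulocytes between peripheral and normal (-0.01 to 0.19) and core and peripheral marrow (-0.06 to -0.29). Genes called higher and lower were then 692 and 1912, 908 and 2211, 486 and 1889, 136 and 491, 240 and 87, and 43 and 7. The replicate block changed no other call count by over 1.5 times, and with it HSPA5 in core against peripheral CD4 stood at 0.91 (adjusted p = 0.232, by animal).

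Leaving out 1 library at a time gave, for early, peripheral and core against peripheral granulocytes, 0 to 1, and 1 to 4 for core against normal. CD4 gave 0, 0, 0 to 1 and 0 to 1 in the same order, CD8 0 to 4, 0, 0 to 1 and 0, and Treg 0, 0 to 1, 0 and 2 to 5. Normal marrow gave 15 to 21 for granulocytes, 2 to 5 for CD8 and 4 to 10 for Treg. Granulocytes against CD4 gave 14 to 18 in early and in peripheral and 5 to 7 in core marrow.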
